A study of Mus musculus with 8 samples.

Results

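The 38 genes described here encode the machinery that copies DNA in S phase, from origin licensing through helicase activation and DNA synthesis to nucleotide supply, with a few regulators of the G1 to S transition. They were listed by name under a rule that uses no measured value, though with earlier results of these data known, and each was found once among the 23846 entries of the deposited expression table. RNA was sequenced from sorted bone marrow cells of mice, in 4 TOX knockout libraries and 4 wild-type libraries. TOX is a nuclear HMG-box protein of developing lymphocytes, and by its title the study concerns the origin of innate lymphoid cell (ILC) progenitors. The labels name the genotype and bone marrow as the source and give no strain, age, sorted population or knockout allele. They also do not tie each library to an animal of its own, so the p-values below measure the spread between these libraries, which may in part be technical. Expression is in FPKM, fragments per kilobase of gene model, relative to the mapped reads of the library, and libraries are called by the number in their column name (10, 11, 16 and 29 in each genotype).

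Replication origins are licensed in G1, when the origin recognition complex with CDC6 and CDT1 loads the MCM helicase as an inactive ring. Cyclin E with its kinase partner, and E2F transcription factors once freed from retinoblastoma proteins, then carry the cell into S phase, where CDC45 and the GINS complex join the MCM ring and polymerases follow the opened fork. Most genes of this machinery are transcribed periodically and are high in dividing blood progenitors.

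Promoter sequence is shown for 5 of the genes because E2F proteins are known regulators of S-phase genes and 9 members carried an E2F word near their start. A RefSeq promoter table of build GRCm38.p6 gave windows of 250 bases before its transcription starts for 30 members. These starts are not always those of the deposited gene coordinates, and the windows of Cdc6, Dut and E2f1 lay inside the deposited gene. So did some windows of Lig1, Mcm7 and Uhrf1, which had more than 1. The members with windows are those other than Mcm4, Gins1, Gins2, Gins4, Prim2, Pole, Rfc2 and Ccne2. The E2F words searched, on both strands, were TTTCCCGC, TTTCGCGC, TTTGCCGC and TTTGGCGC. They were present in 9 of 30 members (30%), against 583 of 27025 genes in the table (2.16%) and 308 of 8115 genes whose windows had at least 60% G and C (3.8%). The 9 were Orc1, Cdc6, Mcm5, Mcm6, Mcm7, Gins3, Pola1, Rfc3 and Uhrf1. The CCAAT box was in 17 members (56.7%), against 37.5% of all genes and 30.5% of those with at least 60% G and C. The cell cycle homology region, searched as TTTGAA or TTCGAA, was in 6 members (20.0%), against 19.6% of all genes and 5.96% of those with at least 60% G and C. The median share of G and C was 59.6% in the members' windows, 52.4% in all windows and 66.8% in those with at least 60%. Neither comparison set thus matches the members in G and C. The stretches below are the 160 bases before the start, with E2F words and CCAAT boxes (read on either strand) in capitals. They come from Mcm5 (chr8:75109349-75109508, plus strand), Mcm6 (chr1:128359706-128359865, minus strand), Orc1 (chr4:108579294-108579453, plus strand), Cdc6 (chr11:98907991-98908150, plus strand) and Mcm3 (chr1:20820313-20820472, minus strand).
Mcm5: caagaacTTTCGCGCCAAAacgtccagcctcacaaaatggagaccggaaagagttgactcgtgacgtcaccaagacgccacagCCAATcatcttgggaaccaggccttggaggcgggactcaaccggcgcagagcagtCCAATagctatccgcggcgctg
Mcm6: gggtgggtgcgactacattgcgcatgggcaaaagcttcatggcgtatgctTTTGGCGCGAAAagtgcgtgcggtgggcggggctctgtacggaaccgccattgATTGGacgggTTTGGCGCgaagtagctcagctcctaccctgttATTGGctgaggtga
Orc1: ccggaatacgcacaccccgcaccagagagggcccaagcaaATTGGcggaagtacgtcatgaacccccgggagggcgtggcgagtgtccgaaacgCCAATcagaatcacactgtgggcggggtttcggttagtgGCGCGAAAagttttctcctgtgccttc
Cdc6: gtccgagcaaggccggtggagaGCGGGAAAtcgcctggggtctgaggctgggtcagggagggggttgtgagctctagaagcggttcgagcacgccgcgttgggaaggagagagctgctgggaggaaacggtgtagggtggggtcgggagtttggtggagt
Mcm3: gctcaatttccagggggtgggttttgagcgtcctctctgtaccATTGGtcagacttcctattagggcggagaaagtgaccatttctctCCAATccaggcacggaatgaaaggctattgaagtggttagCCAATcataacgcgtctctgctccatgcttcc
In Mcm5 the capitals hold 2 E2F words that overlap, beginning 153 and 149 bases before the start, and 2 CCAAT boxes. Mcm6 has 3 E2F words at 110, 106 and 47 bases, the first pair overlapping, and 2 CCAAT boxes. Orc1 has 1 E2F word at 27 bases with 2 CCAAT boxes, and Cdc6 has 1 at 138 bases with no CCAAT box. The Cdc6 word lies before the RefSeq start used here but after the deposited start of the gene, at 98907889. Mcm3 has 3 CCAAT boxes and none of the E2F words in this stretch. Apart from the overlapping E2F words, no motif overlapped another in these stretches. These matches are descriptions of the letters and not evidence of binding.

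With the values as deposited, the replication genes lay mostly a little higher in TOX knockout cells, but no single gene passed the test over the whole transcriptome. Differences are given as log2(FPKM + 1) in TOX knockout less that in wild type, and this log2 difference was above 0 in 30 of 38 members, against 21.5% of the 10693 genes tested. Its median was 0.30 over the members and -0.52 over all genes tested. By limma with Benjamini-Hochberg adjustment over all genes, 0 members were called higher at an adjusted p under 0.05 (0.196% of all genes were) and 0 lower (1.72% of all genes were). At an unadjusted p under 0.05, 3 members were higher, Gins1, Mcm3 and Rrm1, against 3.11% of all genes, and 0 were lower. The lowest adjusted p was 0.131, for Gins1. The TOX knockout values lay wholly above the wild-type values for 4 members, Gins1, Mcm3, Rrm1 and Cdt1, against 1.09% of all genes, and wholly below them for 0, against 11% of all genes.

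Because FPKM is relative to everything else in a library, the same fit was made after median-ratio scaling, which divides each library by its median ratio to the average library and brought the median of all genes to -0.04. The divisors were 1.21, 1.34, 0.443 and 0.722 for TOX knockout libraries 10, 11, 16 and 29. For wild-type libraries in the same order they were 1.27, 1.3, 1.25 and 1.38. Scaling thus raised the values of TOX knockout libraries 16 and 29 and lowered those of all other libraries. The sign was the same on both scales for 34 members and flipped for Mcm7, Rfc2, Rfc4 and Rfc5, whose differences were below 0 as deposited and above 0 after scaling. After scaling, Mcm3 and Gins1 rose in TOX knockout cells, 2 of 38 members against 0.87% of all genes, and 0 members fell, against 1.11%. The difference was above 0 in 34 members, against 47.5% of all genes, with a median of 0.85. Tyms, Gins2, Gins4 and Pola2 stayed below 0 on both scales. An unadjusted p under 0.05 in the upward direction was reached by 16 members, against 9.88% of all genes. For 12 members the TOX knockout values lay wholly above the wild-type values, against 5.2% of all genes, and for 0 wholly below, against 6.37%. These 12 were Mcm2, Mcm3, Mcm4, Mcm5, Mcm6, Rrm1, Gins1, Cdc45, Cdt1, Pola1, Prim1 and Pold1. Relative to the median of all genes, the members' median stood at 0.82 as deposited and 0.89 after scaling. In bulk samples a smaller share of cells of a type and less of its RNA per cell cannot be told apart, and the same holds for a larger share.

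**Figure D1:**
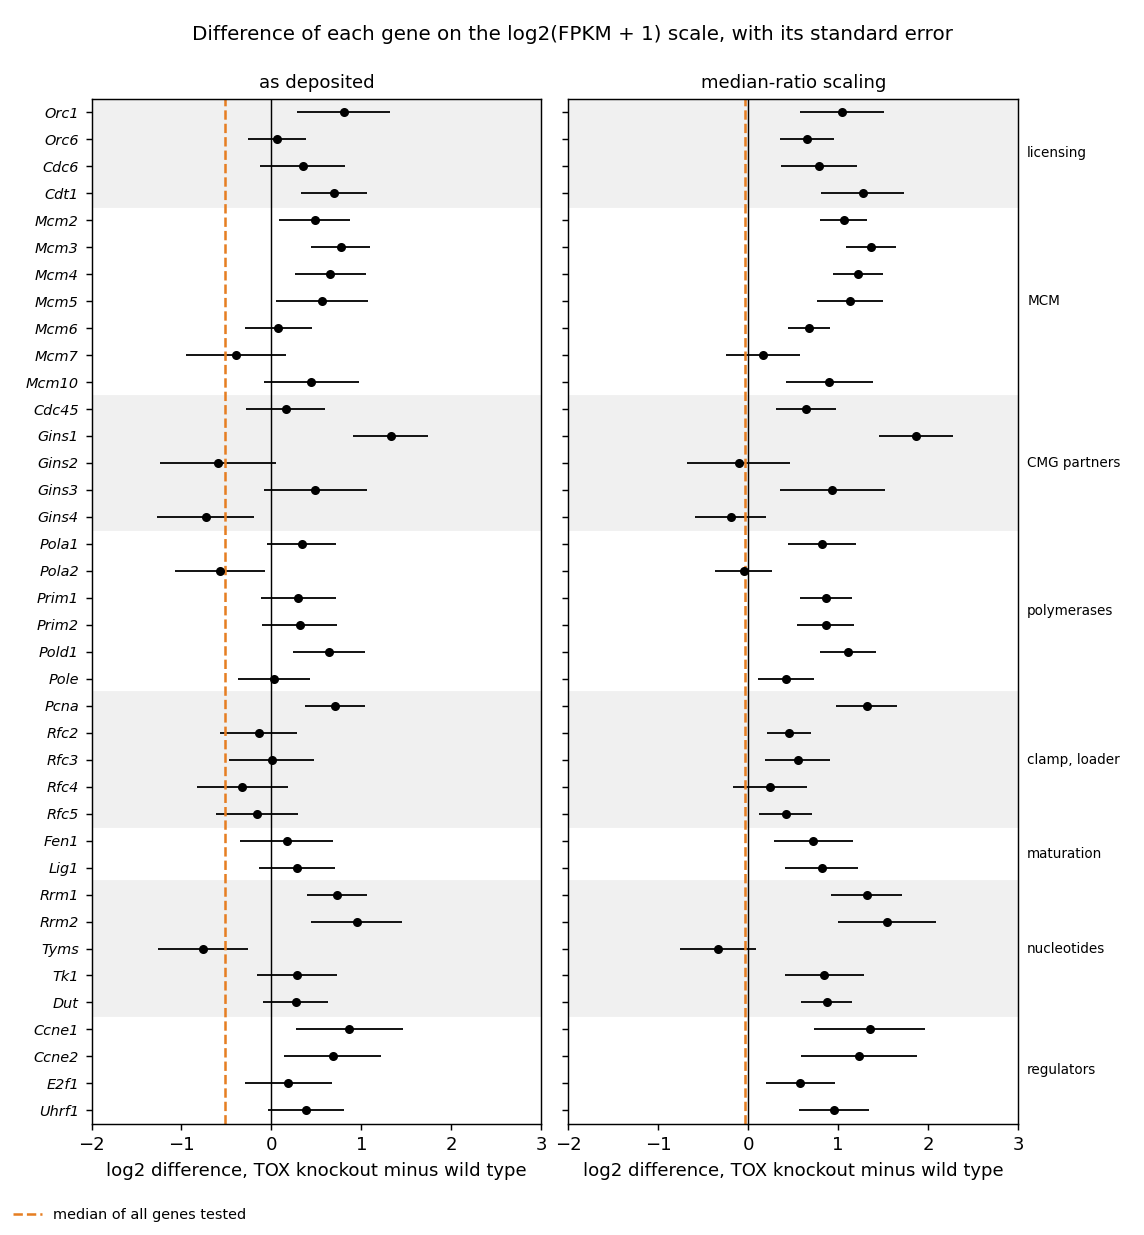
Difference in log2(FPKM + 1), TOX knockout less wild type, of each of the 38 genes (points, with the standard error from limma), as deposited at left and after median-ratio scaling at right, with 4 libraries in each group. The dashed line is the median of all genes tested, -0.52 at left and -0.04 at right; 30 points lie above 0 at left and 34 at right.

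Among the licensing factors, Cdt1, which helps to load the MCM ring and is destroyed once S phase begins, was higher in every TOX knockout library than in any wild-type library. Its FPKM was 11.8, 12.5, 17.1 and 23.9 in TOX knockout libraries 10, 11, 16 and 29, against 7.44, 9.48, 10.9 and 9.68 in wild-type libraries 10, 11, 16 and 29. The log2 difference was 0.70 (SE 0.37, limma adjusted p = 0.284) as deposited and 1.27 (SE 0.46, adjusted p = 0.177) after scaling. Cdc6, the ATPase that loads MCM together with CDT1, had 4.82, 4.49, 1.33 and 8.38 FPKM in TOX knockout and 3.85, 1.99, 4.05 and 2.61 FPKM in wild type. Its groups overlapped, since TOX knockout library 16 held the lowest value of all and the other 3 TOX knockout libraries the 3 highest. It differed on the log2 scale by 0.35 (SE 0.47, adjusted p = 0.642) as deposited and 0.78 (SE 0.42, adjusted p = 0.332) after scaling. Orc1, the origin complex subunit that is itself periodic, was the lowest member in wild type, and had 6.79, 1.42, 0.350 and 3.42 FPKM in TOX knockout against 1.16, 0.726, 0.738 and 0.868 FPKM in wild type. In 3 of 4 TOX knockout libraries Orc1 was above the wild-type range, and in library 16 it was below it. Its log2 difference as deposited was 0.80 (SE 0.52, adjusted p = 0.359). Orc6, another subunit of the complex, spanned 16.5 to 21.8 FPKM in TOX knockout and 16.7 to 21.0 FPKM in wild type. Its log2 difference was 0.065 (SE 0.32) as deposited and 0.65 (SE 0.30, adjusted p = 0.264) after scaling.

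The MCM helicase is a ring of 6 related ATPases, and Mcm2 to Mcm6 were higher in every TOX knockout library than in any wild-type library after scaling, while as deposited only Mcm3 was. Mcm3 had 54.1, 50.5, 36.9 and 38.8 FPKM in TOX knockout and 24.2, 21.5, 27.6 and 30.3 FPKM in wild type. The lowest TOX knockout value was above the highest wild-type value. The mean was 45.1 ± 8.52 FPKM in TOX knockout and 25.9 ± 3.83 FPKM in wild type (SD, n = 4 each). As a log2 difference this was 0.77 (SE 0.33, adjusted p = 0.216) as deposited and 1.37 (SE 0.28, adjusted p = 0.0350) after scaling. Mcm3 lies on chromosome 1, 20803014 to 20820213 (mm10). With each library left out in turn after scaling, its adjusted p ran from 0.019 to 0.129, and it was called in 2 of 8 such fits, those without TOX knockout library 11 or 16.

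Mcm2 had 33.5, 29.4, 11.6 and 30.6 FPKM in TOX knockout and 14.5, 16, 18.2 and 20.7 FPKM in wild type. Mcm4 had 25.7, 25.9, 10.3 and 23.4 FPKM in TOX knockout and 14.6, 14.3, 12.4 and 9.09 FPKM in wild type. Mcm5 had 27.7, 36.8, 6.60 and 39.7 FPKM in TOX knockout and 11.7, 14.4, 16.8 and 19.5 FPKM in wild type. In all of these 3 genes TOX knockout libraries 10, 11 and 29 were above every wild-type library and TOX knockout library 16 was not. As deposited their log2 differences were between 0.48 and 0.65, with adjusted p of 0.450 for Mcm2, 0.334 for Mcm4 and 0.488 for Mcm5 (limma). After scaling the groups no longer overlapped, and the differences were 1.06 (SE 0.26, adjusted p = 0.0768) for Mcm2, 1.22 (SE 0.27, adjusted p = 0.0530) for Mcm4 and 1.13 (SE 0.37, adjusted p = 0.146) for Mcm5. Scaling moved TOX knockout library 16 from 11.6 to 26.1 for Mcm2, from 10.3 to 23.2 for Mcm4 and from 6.60 to 14.9 for Mcm5. Mcm6 had 44.4, 55.9, 23.6 and 27.9 FPKM in TOX knockout and 32.9, 35.9, 25.6 and 43.4 FPKM in wild type. TOX knockout libraries 10 and 11 were above the wild-type range of Mcm6, library 16 below it and library 29 inside it. Its log2 difference was 0.08 (SE 0.37) as deposited and 0.67 (SE 0.23, adjusted p = 0.164) after scaling. Mcm7 had 22.0, 29.9, 3.65 and 31.4 FPKM in TOX knockout and 25.6, 20.7, 19.5 and 26.0 FPKM in wild type. It differed by -0.39 (SE 0.56, adjusted p = 0.656) as deposited and by 0.16 (SE 0.41, adjusted p = 0.853) after scaling. Mcm10, which helps to activate the loaded helicase and is not part of the ring, spanned 2.16 to 10.7 FPKM in TOX knockout and 1.05 to 6.01 FPKM in wild type.

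Since the ring holds its 6 subunits in equal number, their FPKM values were compared within each library. The highest subunit exceeded the lowest by 2.47, 2.15, 10.1 and 1.70 times in TOX knockout libraries 10, 11, 16 and 29, and by 2.82, 2.50, 2.22 and 4.77 times in wild-type libraries 10, 11, 16 and 29. TOX knockout library 16 stood apart, with 36.9 FPKM of Mcm3 and 3.65 FPKM of Mcm7. In the wild-type libraries Mcm6 was the highest subunit in 3 and Mcm3 in 1, while in TOX knockout libraries the highest was Mcm3 in 10 and 16, Mcm6 in 11 and Mcm5 in 29. The ring's summed FPKM was 207, 228, 92.6 and 192 in TOX knockout and 124, 123, 120 and 149 in wild type, so that every TOX knockout library but number 16 exceeded all wild-type libraries.

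**Figure D2:**
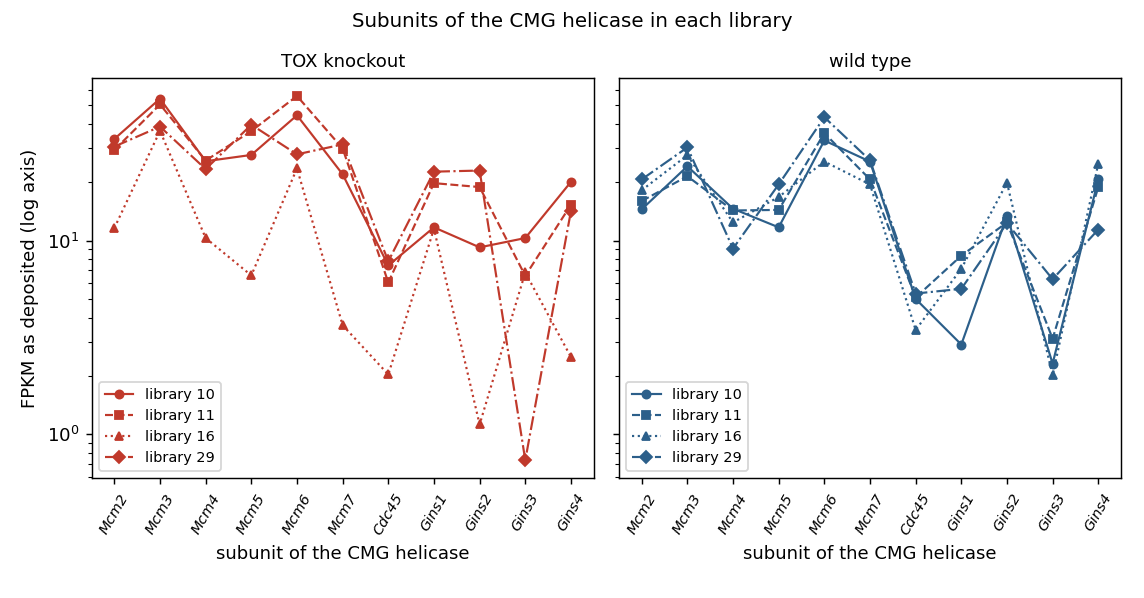
FPKM as deposited (log axis) of the MCM ring subunits, Cdc45 and the GINS subunits, with 1 line for each library, TOX knockout at left and wild type at right. Lines for TOX knockout libraries 10, 11 and 29 run close together over Mcm2 to Mcm5, while library 16 falls away to 3.65 FPKM at Mcm7 and 1.12 FPKM at Gins2, and library 29 drops to 0.732 FPKM at Gins3.

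CDC45 and the 4 GINS proteins join the ring to form the active helicase at the fork. Gins1 had the largest difference of the 38 genes on both scales, at 11.7, 19.8, 11.5 and 22.7 FPKM in TOX knockout against 2.90, 8.35, 7.15 and 5.63 FPKM in wild type. Every TOX knockout value was above the highest wild-type value. The mean was 16.4 ± 5.72 FPKM in TOX knockout and 6.01 ± 2.35 FPKM in wild type (SD, n = 4 each). Its log2 difference was 1.33 (SE 0.42, adjusted p = 0.131) as deposited and 1.87 (SE 0.41, adjusted p = 0.0477) after scaling. Gins1 lies on chromosome 2, 150909594 to 150931280 (mm10). With each library left out after scaling its adjusted p ran from 0.0424 to 0.162, and it was called in 2 of 8 fits, those without TOX knockout library 10 or 11.

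The other 3 GINS subunits gave overlapping groups on both scales. Gins2 had 9.22, 18.9, 1.12 and 23.0 FPKM in TOX knockout and 13.4, 12.4, 19.9 and 12.3 FPKM in wild type. Gins3 had 10.3, 6.57, 6.84 and 0.732 FPKM in TOX knockout and 2.31, 3.11, 2.01 and 6.31 FPKM in wild type. Gins4 had 20.1, 15.3, 2.50 and 14.2 FPKM in TOX knockout and 20.7, 18.9, 25.0 and 11.4 FPKM in wild type. TOX knockout library 16 was the lowest of all for Gins2 and Gins4, and library 29 for Gins3. The scaled log2 differences were -0.11 (SE 0.57) for Gins2, 0.94 (SE 0.59) for Gins3 and -0.20 (SE 0.40) for Gins4, none called by limma (adjusted p between 0.404 and 0.935). As deposited the differences were -0.59 (SE 0.64) for Gins2, 0.49 (SE 0.58) for Gins3 and -0.73 (SE 0.54) for Gins4. Whether Gins1 differs from the other GINS subunits was not tested. Within a library the highest GINS subunit exceeded the lowest by up to 31.4 times, in TOX knockout library 29, and by up to 12.4 times in wild type, in library 16. Cdc45 had 7.43, 6.07, 2.03 and 7.81 FPKM in TOX knockout and 4.99, 5.08, 3.45 and 5.32 FPKM in wild type. It again had library 16 below and the other 3 TOX knockout libraries above the wild-type range, and its log2 difference was 0.16 (SE 0.44) as deposited and 0.64 (SE 0.34, adjusted p = 0.320) after scaling.

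Polymerase alpha with primase begins each new strand, and polymerases delta and epsilon extend it. Prim1, the catalytic primase subunit, was the highest of the 4 alpha-primase genes in all libraries but wild-type library 29, where Pola2 was. Its FPKM was 22.4, 27.1, 8.65 and 23.1 in TOX knockout and 13.7, 12.0, 22.4 and 14.1 in wild type. Pold1, the catalytic subunit of polymerase delta, had 5.11, 7.68, 2.90 and 5.95 FPKM in TOX knockout and 3.39, 2.35, 2.78 and 3.35 FPKM in wild type. Only library 16 of the TOX knockout group fell inside the wild-type range of Pold1, and its log2 difference was 0.64 (SE 0.40, adjusted p = 0.343) as deposited and 1.11 (SE 0.31, adjusted p = 0.106) after scaling. Pole, the catalytic subunit of polymerase epsilon, spanned 1.08 to 3.91 FPKM in TOX knockout and 1.97 to 2.64 FPKM in wild type, and was below Pold1 in all 8 libraries. Pola1, the catalytic alpha subunit, spanned 2.97 to 6.40 FPKM in TOX knockout and 2.87 to 3.67 FPKM in wild type. The accessory subunits Pola2 (2.33 to 17.8 FPKM in TOX knockout, 10.7 to 15.3 in wild type) and Prim2 (5.45 to 17.7 FPKM in TOX knockout, 6.83 to 12.4 in wild type) overlapped between groups. Log2 differences of these 6 genes ran from -0.57 for Pola2 to 0.64 for Pold1 as deposited, and from -0.05 to 1.11 for the same genes after scaling.

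The sliding clamp PCNA tethers polymerases to DNA and was the most abundant member in both groups. Pcna had 120, 94.5, 83.0 and 115 FPKM in TOX knockout and 47.8, 59.9, 91.9 and 56.1 FPKM in wild type. Only wild-type library 16 reached into the TOX knockout range. The log2 difference was 0.71 (SE 0.33, adjusted p = 0.250) as deposited and 1.32 (SE 0.34, adjusted p = 0.0852) after scaling. The small subunits of replication factor C, which load the clamp, overlapped between groups. Rfc2 had 60.4, 70.8, 23.0 and 21.7 FPKM in TOX knockout and 38.5, 43.4, 38.6 and 50.5 FPKM in wild type, with TOX knockout libraries on both sides of the wild-type range. It was the highest of the 4 Rfc genes in 7 of 8 libraries. Rfc3 spanned 4.39 to 18.8 FPKM in TOX knockout and 7.70 to 17.1 in wild type, Rfc4 5.40 to 32.1 in TOX knockout and 16.9 to 23.2 in wild type, and Rfc5 8.49 to 34.5 in TOX knockout and 17 to 21.1 in wild type. Their log2 differences as deposited lay between -0.32 and 0.00, and between 0.24 and 0.55 after scaling, Rfc2 included, with adjusted p of at least 0.327.

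Fen1, the flap endonuclease, and Lig1, the ligase that joins Okazaki fragments, mature the lagging strand. Fen1 spanned 5.53 to 22.8 FPKM in TOX knockout and 4.78 to 18.5 in wild type, and Lig1 4.96 to 10.9 FPKM in TOX knockout and 4.16 to 10.6 in wild type. Both overlapped between groups, with scaled log2 differences of 0.72 (SE 0.44) for Fen1 and 0.82 (SE 0.41) for Lig1. As deposited the differences were 0.17 (SE 0.51) for Fen1 and 0.28 (SE 0.42) for Lig1.

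Ribonucleotide reductase, made of the large subunit RRM1 and the cell cycle regulated small subunit RRM2, supplies deoxyribonucleotides. Rrm1 had 26.3, 25.7, 28.8 and 36.5 FPKM in TOX knockout and 18.1, 13.9, 21.0 and 16.2 FPKM in wild type. The groups did not overlap, and TOX knockout library 16, the lowest library for 19 other members, was the second highest here. It differed on the log2 scale by 0.73 (SE 0.33, adjusted p = 0.238) as deposited and 1.32 (SE 0.39, adjusted p = 0.121) after scaling. Rrm2 had 48.4, 29.7, 23.4 and 138 FPKM in TOX knockout and 23.5, 15.8, 32.7 and 25.6 FPKM in wild type. The value of 138 in TOX knockout library 29 was the highest of any member in any library, library 10 was also above the wild-type range, and libraries 11 and 16 were inside it. As a log2 difference this was 0.95 (SE 0.51, adjusted p = 0.292) as deposited and 1.54 (SE 0.55, adjusted p = 0.170) after scaling.

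Thymidylate synthase, which makes the thymine nucleotide, was lower in TOX knockout on both scales without being called. Tyms had 4.14, 5.75, 0.635 and 6.38 FPKM in TOX knockout and 6.28, 5.98, 8.85 and 5.95 FPKM in wild type, with only library 29 of the TOX knockout group inside the wild-type range. Its log2 difference was -0.76 (SE 0.50, adjusted p = 0.364) as deposited and -0.34 (SE 0.42, adjusted p = 0.697) after scaling, the lowest of the 38 on both scales. Tk1, the thymidine kinase of dividing cells, spanned 6.52 to 24.2 FPKM in TOX knockout and 5.66 to 13.2 in wild type. Dut, which removes dUTP, spanned 33.4 to 78.8 FPKM in TOX knockout and 38.6 to 56.0 in wild type. Scaled differences were 0.85 (SE 0.44) for Tk1 and 0.87 (SE 0.28, adjusted p = 0.145) for Dut. As deposited the differences were 0.29 (SE 0.45) for Tk1 and 0.27 (SE 0.36) for Dut.

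Of the regulators, Ccne1 and Ccne2 encode the E cyclins, E2f1 an activating E2F factor, and Uhrf1 the protein that reads hemimethylated DNA behind the fork. Ccne1 had 9, 4.40, 2.56 and 26.4 FPKM in TOX knockout and 4.55, 2.11, 6.50 and 2.68 FPKM in wild type. Ccne2 had 11.9, 2.92, 9.05 and 22.4 FPKM in TOX knockout and 7.48, 4.72, 8.79 and 2.80 FPKM in wild type. Both were highest in TOX knockout library 29, with library 10 also above the wild-type range and library 11 inside it. Their log2 differences as deposited were 0.87 (SE 0.59, adjusted p = 0.381) for Ccne1 and 0.68 (SE 0.54, adjusted p = 0.437) for Ccne2. E2f1 had 6.99, 3.81, 0.948 and 3.61 FPKM in TOX knockout and 2.75, 1.46, 4.26 and 3.23 FPKM in wild type, mixed between groups, with a difference of 0.19 (SE 0.49) as deposited and 0.58 (SE 0.38) after scaling. Uhrf1 spanned 8.29 to 22.9 FPKM in TOX knockout and 5.72 to 14.6 FPKM in wild type. Its difference was 0.39 (SE 0.42) as deposited and 0.95 (SE 0.39, adjusted p = 0.221) after scaling.

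**Figure D3:**
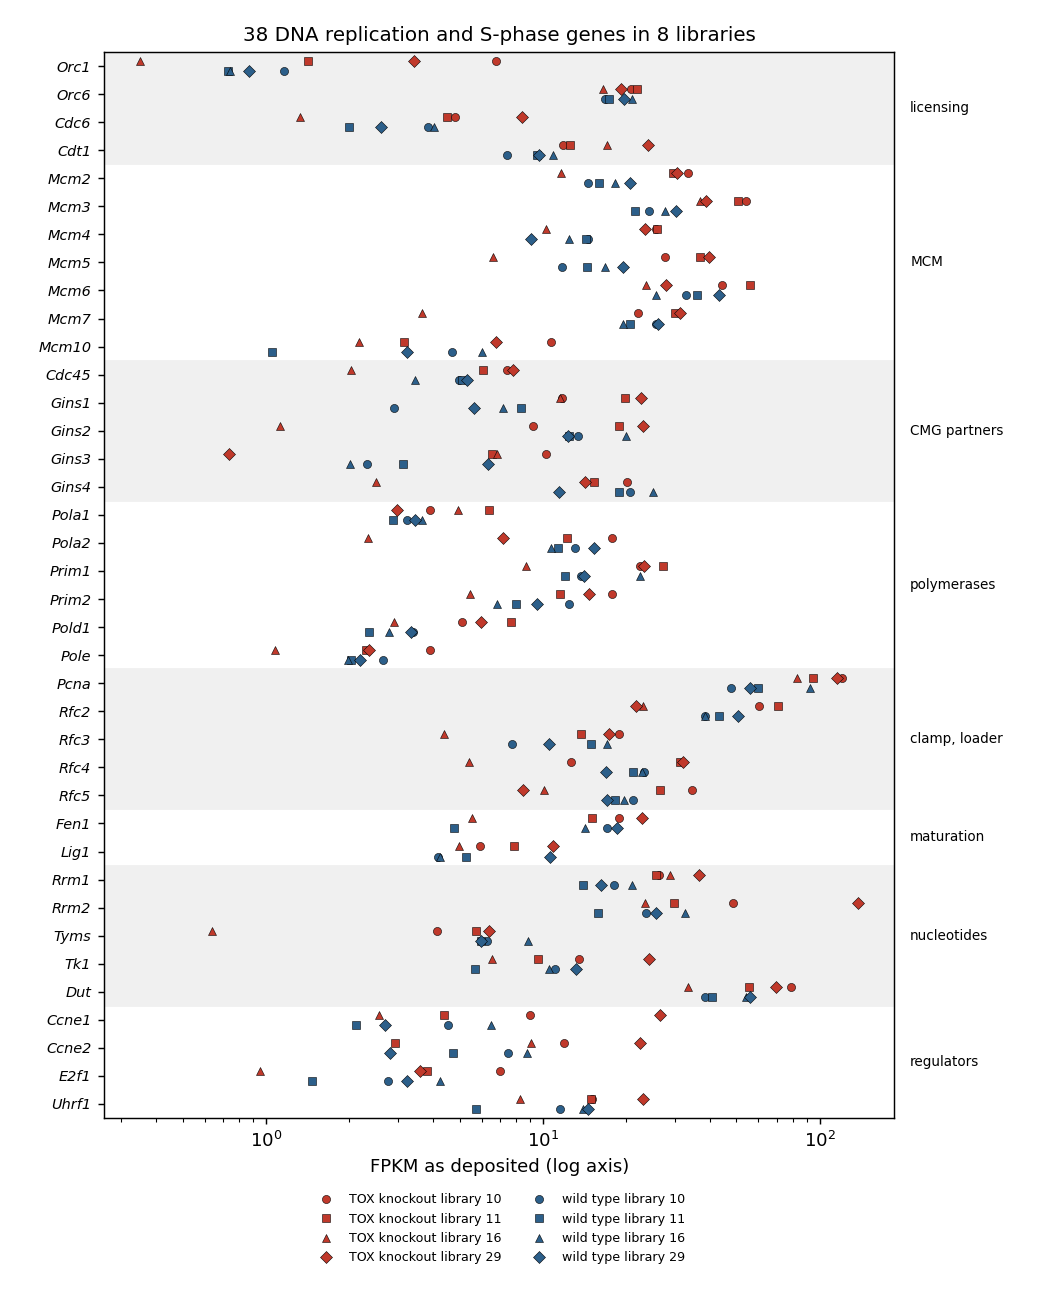
FPKM as deposited (log axis) of every gene in every library, with TOX knockout points above wild-type points in each row and 1 marker shape for each library number. TOX knockout library 16 (triangles) is the leftmost point of 19 genes, and for Gins1, Mcm3, Rrm1 and Cdt1 all 4 TOX knockout points lie to the right of the wild-type points.

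The TOX knockout libraries differed among themselves more than the wild-type libraries did. Summed over the 38 genes, FPKM was 877, 818, 429 and 956 in TOX knockout libraries 10, 11, 16 and 29, and 533, 503, 638 and 594 in wild-type libraries 10, 11, 16 and 29. TOX knockout sums of libraries 10, 11 and 29 were above all wild-type sums and that of library 16 was below them. Total FPKM over all genes differed too, at 490641, 342227, 208351 and 632604 in TOX knockout libraries 10, 11, 16 and 29. It ran from 296777 to 365906 in wild type. Of all FPKM the 38 genes made up 0.179%, 0.239%, 0.206% and 0.151% in TOX knockout libraries 10, 11, 16 and 29. The wild-type range was 0.16% to 0.18%. By share, libraries 11 and 16 were thus above wild type, library 10 inside its range and library 29 below it. After scaling, member sums were 725, 609, 968 and 1323 in TOX knockout and 419, 386, 509 and 431 in wild type. These sums did not overlap between groups. Library 16 held the lowest value of all 8 libraries for 19 members, library 29 the highest for 16 and library 10 the highest for 13. In TOX knockout library 10, 31 members were above the wild-type maximum, against 25.4% of all genes tested. The count was 22 in library 11 (21.7% of all genes), 7 in library 16 (6.19%) and 27 in library 29 (12.8%). After scaling it was 32, 19, 27 and 33, against 30%, 19.9%, 36.5% and 34.5% of all genes.

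Library 16 is unlike the others over the whole table, with 7328 genes at 1 FPKM or more against 9263 to 10600 in the other 7 libraries, and with 75.0% of all tested genes below the wild-type minimum. Its depth, read from the steps between low FPKM values, was 1.44 times that of wild-type library 10 and the highest of the 4 libraries that shared its run of barcodes. Without it, the members' median as deposited was 0.57 against -0.26 for all genes, 35 of 38 differences were above 0, and 14 members had TOX knockout values wholly above wild type, against 4.49% of all genes. Of these, 0 were called by limma, against 1.16% of all genes, 11 members were higher at an unadjusted p under 0.05, against 6.46% of all genes, and the lowest adjusted p was 0.0633. After scaling, leaving out library 16 gave 4 called members, Mcm2, Mcm3, Mcm4 and Mcm5, against 1.75% of all genes. Leaving out TOX knockout library 11 gave 7, Mcm2, Mcm3, Mcm4, Pcna, Rrm1, Dut and Gins1, against 2.69%. Scaled fits without TOX knockout library 29 or without any 1 wild-type library called 0 members.

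The column names give libraries 10 and 16 of both genotypes 1 run of consecutive barcode numbers and libraries 11 and 29 another. The names do not say whether the 2 runs of barcodes were prepared or sequenced apart. Within the first run the members' median difference was -0.03 as deposited, against -0.63 for all genes, and within the second it was 0.71 against -0.38. Relative to all genes the members' median was 0.60 in the first run and 1.09 in the second, and the difference between runs was not tested. Each run holds 2 libraries of each group. In both, 0 members were called, where the share of all genes called higher was 0% in the first run and 0.324% in the second.

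Other genes of the cell cycle were read from the same fit, from lists compiled with earlier results of these data known. As deposited, limma called 0 genes in each of these 5 lists. Of 27 further fork and origin genes tested, 12 differences were above 0, the median was -0.08, and 1 gene was higher and 2 lower at an unadjusted p under 0.05. The smallest p values belonged to Orc5 and Orc2, subunits of the origin complex. Orc5 had 11.8, 8.43, 0.254 and 2.63 FPKM in TOX knockout and 18.3, 18.4, 19.4 and 11.5 FPKM in wild type, with a log2 difference of -1.86 (SE 0.63, adjusted p = 0.154). Orc2 differed by -1.23 (SE 0.45, adjusted p = 0.176). The contrast between this list and the members was not tested.

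Among 18 further S-phase genes of nucleotide synthesis and chromatin assembly, 5 differences were above 0 and the median was -0.15, with Chaf1b, a subunit of chromatin assembly factor 1, at -1.04 (SE 0.52, adjusted p = 0.268) and Gart, a purine synthesis enzyme, at -0.77 (SE 0.40, adjusted p = 0.284). No gene of this list had an unadjusted p under 0.05 in that fit. Among 17 regulators of the G1 to S step, 10 were above 0 and the median was 0.19, with Cdk6 at -1.27 (SE 0.48, adjusted p = 0.184) and E2f8, a repressive E2F factor, at 1.10 (SE 0.43, adjusted p = 0.193). At an unadjusted p under 0.05, 2 regulators were higher and 1 lower. Among 13 brakes on the cycle, 5 were above 0 and the median was -0.47, near that of all genes, with the pocket protein gene Rbl2 at -1.56 (SE 0.54, adjusted p = 0.163) and the CDK inhibitor gene Cdkn1a at -1.59 (SE 0.56, adjusted p = 0.167). Those were the 2 brakes with an unadjusted p under 0.05. All 16 mitotic genes were above 0, with a median of 0.61, and 2 had an unadjusted p under 0.05. Of these, Mki67, the proliferation marker, had 45.5, 28.4, 31.2 and 49.2 FPKM in TOX knockout and 15.4, 13.1, 30 and 17.6 FPKM in wild type (1.01, SE 0.38, adjusted p = 0.179), and Birc5, which encodes survivin of the chromosomal passenger complex, differed by 1.05 (SE 0.47, adjusted p = 0.230). After scaling the medians were 0.37, 0.31, 0.58, 0.12 and 1.14 in the order of the 5 lists above, and again 0 genes were called.

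The libraries also differed in the cell types their transcripts mark, and the part of this in the replication genes was not tested. Tox had 2.34, 0.107, 0.928 and 0.242 FPKM in TOX knockout and 107, 119, 123 and 92.4 FPKM in wild type, so each library matched its label. Of 8 ILC progenitor markers 7 fell in TOX knockout, 6 of them also after scaling, among them the transcription factor genes Rora, Zbtb16 and Gata3 and the interleukin 7 receptor gene Il7r. The list summed to 131 to 494 FPKM in TOX knockout and 1910 to 2700 FPKM in wild type. All 14 neutrophil and granulocyte markers had differences above 0 (median 3.05, 0 called, lowest adjusted p = 0.0669 for Mmp8, next Camp at 0.0776). They made up 7.81%, 3.81%, 5.83% and 7.33% of all FPKM in TOX knockout libraries 10, 11, 16 and 29, and 1.93%, 1.31%, 2.67% and 0.0812% in wild-type libraries 10, 11, 16 and 29. Elane, Prtn3 and Ctsg were at 0 in at least 1 wild-type library. Globin genes made up 25.6%, 6.17%, 20.9% and 58.6% in TOX knockout and 3.67%, 3.42%, 14.8% and 5.52% in wild type.

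All 13 erythroid markers found were above 0 (median 1.51, 0 called), led by Slc4a1 and Car2, with sums of 10600 to 182000 FPKM in TOX knockout and 5410 to 27000 FPKM in wild type. Epor was at 0 in 1 wild-type library. The other marker lists had 0 called genes as deposited, and after scaling Mmp8, Ms4a6c and Ms4a2 rose. B-lineage markers, led by Ms4a1 and Blnk, were above 0 in 8 of 8 tested and summed to 50 to 532 FPKM in TOX knockout and 66.6 to 283 in wild type, with Pax5 and Igll1 at 0 in some library. Monocyte markers were above 0 in 6 of 7, with Csf1r at 1.59 and the exception, Ccr2, at -1.94, the smallest p values of the list. They summed to 311 to 2450 FPKM in TOX knockout and 150 to 821 in wild type, with Cd14 among those at 0 in some library. Basophil and mast cell markers, led by Fcer1a and Ms4a2, were above 0 in 7 of 7 and summed to 163 to 744 FPKM in TOX knockout and 78.1 to 251 in wild type, with Fcer1a, Mcpt8 and Prss34 at 0 in some library. Plasma cell markers, led by Mzb1 and Igj, were above 0 in 3 of 4 and summed to 130 to 724 FPKM in TOX knockout and 53.2 to 158 in wild type, with Igj and Prdm1 at 0 in some library. TOX knockout library 11, with the lowest globin and neutrophil shares of its group, had 818 FPKM of replication genes. TOX knockout library 29, with the highest globin share at 58.6%, had 956, the highest sum of any library. TOX knockout library 16, with 20.9% globin and 5.83% neutrophil markers, had 429, the lowest sum of any library. Wild-type library 16, with the highest globin and neutrophil shares of its group, had 638, the highest sum of that group. As a share of all FPKM, the replication genes were highest in TOX knockout library 11 (0.239%) and lowest in TOX knockout library 29 (0.151%). The relation of the globin and neutrophil shares to the replication genes was not tested.

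**Figure D4:**
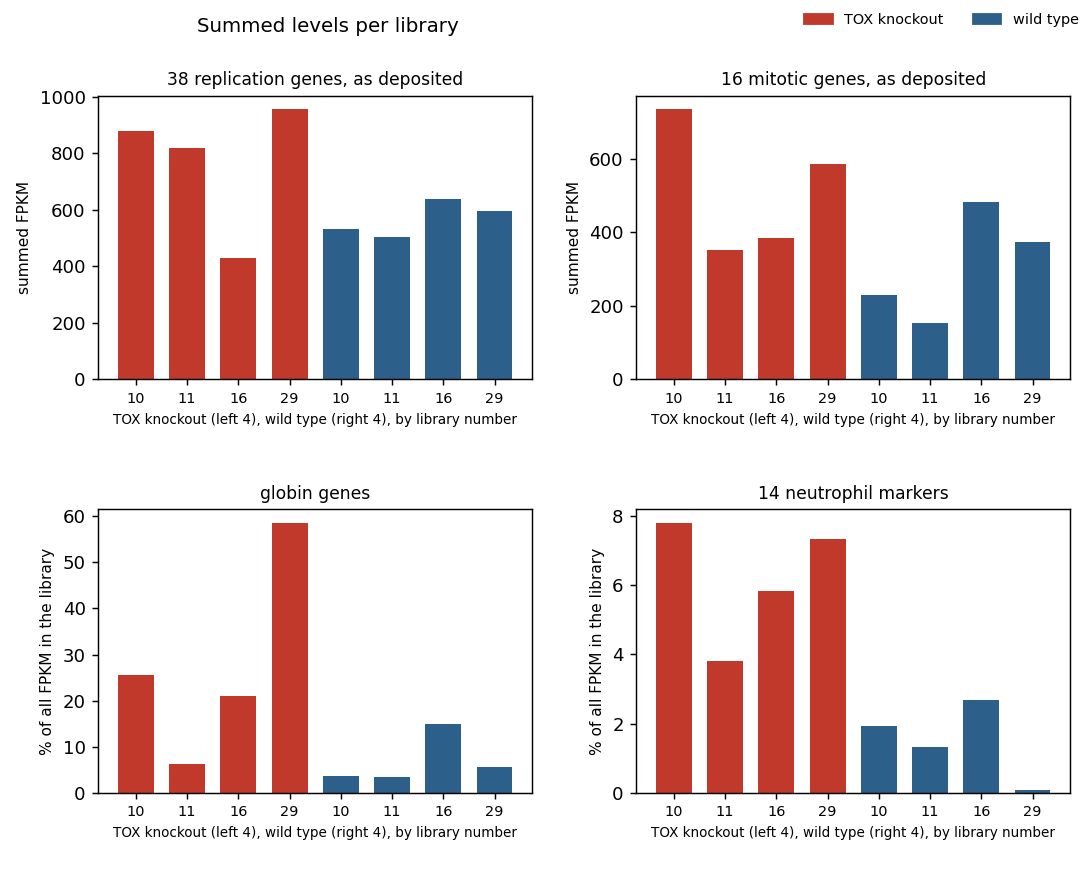
Summed FPKM of the 38 replication genes and of 16 mitotic genes, and the percent of all FPKM in globin genes and in 14 neutrophil markers, with 1 bar for each library, TOX knockout in the left 4 bars and wild type in the right 4. The replication sum is 429 in TOX knockout library 16 and 818 to 956 in the other 3 TOX knockout libraries, against 503 to 638 in wild type.

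Reads from overlapping genes limit some of these values, because the labels' library kit is not described as keeping the strand. In GENCODE annotation of mm10, over 10% of the exonic bases of 7 members are shared with a gene on the opposite strand. The share is 84.2% for Fen1 and 67.3% for Gins2, 17.4% for Ccne2, 15.1% for Rfc2, 12.7% for Rfc4, 10.8% for Orc1 and 10.7% for Rfc5. For Mcm7 it is 8.7%, and 12.6% with genes on either strand counted, among them Mir93 and Mir25 on its own strand. Pcna and Tyms have annotated pseudogenes with which reads may have been shared. Pseudogenes were searched only as the gene symbol followed by -ps, so any with another name were missed. Mcm3 and Gins1 have no exonic overlap with another gene and no pseudogene named in that way.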

How the data were processed

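The deposited values are FPKM, 1 per gene in each library. Per the submitters' processing notes, the authors used Cufflinks and the build mm10. Its version, like the aligner and the annotation, is not given in the sources used here. Per the labels, cDNA was made with a low-input SMARTer kit and sequenced on an Ion Proton. The members and the other gene lists were chosen with earlier results of these data known. Columns were assigned to a genotype by name only, since their numbers (10, 11, 16, 29) are not those of the sample titles. Wild-type columns also carry the tag C4 and TOX knockout columns E3 (E2 in library 11), of a meaning not given in the sources used here, so tag and genotype cannot be told apart.

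Entries averaging at least 1 FPKM were tested as log2(FPKM + 1) with limma 3.58.1 (R 4.3.3), with empirical Bayes moderation, a variance trend on the mean and p-values adjusted by Benjamini-Hochberg over all genes tested, and were called at an adjusted p under 0.05. The log2(FPKM + 1) scale understates the change of low genes. Median-ratio scaling used genes above 0 in all libraries. No read counts were given, so absolute depth is unknown; relative depth within a run of barcodes came from the steps between low FPKM values. Values per library were named for called genes, subunits of 1 complex, Pcna, Mcm2 to Mcm7, Rrm1, Rrm2, Ccne1, Ccne2, E2f1 and Cdc6. Of each other list, up to 4 called genes or the 2 with the smallest p were named. Orc1, Cdt1, Tyms and Cdc45 were given in full after their values were seen. Alternatives covered scaling, pseudocount, filter, variance model, library weights, column number as a block, barcode run, threshold and each library left out. Promoter windows were from RefSeq (GRCm38.p6) and exon overlaps from GENCODE. Coordinates of genes are those of the table, counted from 1.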

Additional observations from a re-analysis of the deposited data

Results flagged for a closer look

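In each of the 38 genes and in each group of 4 libraries, the highest and lowest value was compared with the rest by Dixon's criterion, 76 groups in all, of which 3 were flagged. Chance alone flags about 1 in 20 such groups. Mcm4 in TOX knockout library 16 was 10.3 FPKM, far below the 23.4 to 25.9 FPKM of the other 3 TOX knockout libraries. Tyms in wild-type library 16 was 8.85 FPKM, above the 5.95 to 6.28 FPKM of the other 3 wild-type libraries. Gins2 in wild-type library 16 was 19.9 FPKM, above 12.3 to 13.4 FPKM in the other 3.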

How the results depend on the processing

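As deposited, 205 genes were called. The count was 106 with a pseudocount of 0.1, 74 with no filter on low values, 116 with a mean FPKM of at least 5, 728 with library weights, 400 at an adjusted p under 0.1, 5 in the first barcode run alone and 95 in the second. With each library left out, with or without scaling, it ran from 69 to 654. Whether the numbers pair the libraries was not settled. In the measure used for this check, same-numbered libraries correlated at 0.039, 0.258, 0.006 and -0.021 for 10, 11, 16 and 29. These values are not correlations of the expression levels themselves and do not say how alike the libraries were. The highest correlations with other-numbered libraries were 0.098, 0.036, 0.048 and 0.133, so only the libraries numbered 11 correlated more with each other. The replicate block gave 344 called genes as deposited and 109 with median-ratio scaling, and 0 members were called with it on either scale, so Mcm3 and Gins1 lost their call after scaling.

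Members called higher were 0 as deposited, 2 with median-ratio scaling (0.87% of all genes), 2 with quantile normalization (1.08%), 1 with library weights (Mcm3), near the 2.53% of all genes, and 0 to 7 with each library left out (0.0564% to 2.69% of all genes). With TOX knockout libraries 16 and 29 left out together, chosen after the data were seen, 1 was called after scaling (Mcm3), against 1.06% of all genes. No member was called lower in any fit (0 to 0 with libraries left out). The members' median was 0.30 as deposited, 0.85 with median-ratio scaling, with or without the block, and 0.18 to 0.97 with libraries left out. Relative to all genes it was above 0 in 30 of 30 alternatives, from 0.31 with no filter to 1.09, and 0.63 to 1.03 with libraries left out. Single genes were followed over the alternatives only for Mcm2 to Mcm7, Pcna, Rrm1, Rrm2, Gins1, Cdc6, Ccne1, Ccne2 and E2f1. Of their values, 17 became called, 24 uncalled ones changed sign and 391 kept sign and side of the threshold. The remaining members were not in this count. The causes were not tested. Depth is unknown and 4 libraries a group limit which differences can be called.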
